A study of Homo sapiens with 4 samples.

Results

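The genes described here are those whose level on both late arrays of an MLN4924 time course lay beyond their level on both early arrays. MM.1S, an established human multiple myeloma line, received 250 nM MLN4924 or its vehicle DMSO, and RNA was measured on Affymetrix expression arrays, 1 array a group. The early arrays were the DMSO control, whose label gives no culture time, and 250 nM MLN4924 for 8 h, and the late arrays were 250 nM MLN4924 for 16 h and for 24 h. For each gene the mean log2 intensity of the early pair was taken from that of the late pair, and the gap was the log2 distance between the nearest early and late arrays. Of 12446 genes measured, 6572 (52.8%) had both late arrays beyond both early ones, 3583 (28.8%) higher and 2989 (24.0%) lower. A gap of at least 0.5, which is 1.41-fold, was found for 221 genes, 129 higher (1.04%) and 92 lower (0.739%), and these are the members described below unless another set is named. A gap of at least 1, which is 2-fold, was found for 10 higher genes (0.0803%) and 2 lower genes (0.0161%). Arrays of a pair differ in treatment or in time and are not replicates. The smallest two-sided exact permutation p that 2 arrays against 2 can give is 0.333, so no gene was tested, and each value below describes these 4 arrays.

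MLN4924 blocks the NEDD8-activating enzyme, and without NEDD8 on their cullin scaffolds the cullin-RING ubiquitin ligases lose activity and their substrates build up. A well-known substrate is CDT1, which loads the MCM helicase onto origins of replication, and cells that keep CDT1 after origins have fired can replicate the same DNA again. KEAP1 with cullin 3 marks the antioxidant factor NRF2 for destruction, so NRF2 target genes are another known readout of the drug. Genes for replication proteins are mostly transcribed in late G1 and S phase through E2F factors, while many mitotic genes are transcribed later in the cycle.

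The number of arrays limits the precision. Where 4 values follow a gene's name they are its deposited intensities on the control, 8 h, 16 h and 24 h arrays in that order, and differences and gaps are on the log2 scale. Median intensities as deposited were 92.2 for the control and 94.3 to 95.4 on the treated arrays, and over all measured genes the median late minus early difference was 0.016. The SD over genes of the late minus early difference was 0.24, against 0.22 for 8 h minus control and 0.18 for 24 h minus 16 h. Between measured probe sets of the same gene, in 5719 genes, the pooled SD of the late minus early difference was 0.14, which leaves out the spread between cultures. Of the markers of the labelled cell type, 12 of 12 plasma cell and myeloma genes passed the filter on low values, among them MAF, the factor this line overexpresses, at 8882, 7324, 8239 and 8035. The summed intensity of the 12 was 104964, 91862, 98525 and 95794. Of markers of other cells, 5 of 10 B cell, 6 of 14 T and NK cell, 3 of 11 myeloid, 2 of 10 stromal and 4 of 9 erythroid genes passed the filter, and 1 T and NK cell, 2 myeloid and 1 stromal gene were at the floor on all arrays. The stromal sum went from 7399 and 7945 to 9978 and 10146, nearly all of it VIM, a filament protein that lymphoid cells also make, at 6614 in the control, 7167 at 8 h, 9193 after 16 h and 9357 after 24 h. The summed levels were 1203 and 1245 early against 1242 and 1263 late for T and NK cell markers, and 839 and 822 against 866 and 892 for myeloid markers. They were 11134 and 10639 against 11547 and 11441 for B cell markers, and 2597 and 2698 against 2759 and 3314 for erythroid markers. The part of other cells in the results was not tested.

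The members with a gap of at least 0.5 mostly looked like a step between 8 h and 16 h, which a wide gap favours by construction. The gap was wider than the distance within either pair in 125 of the 129 higher genes and in 91 of the 92 lower ones, while among all separated genes this held for 42.9% in each direction. The 5 members without a step were NCAM1, AKR1C1, AKR1C2, AKR1C3 and PSMC3IP, in each of which the 8 h array lay farther from control than the gap. All 4 arrays stood in order of time in 45 higher (34.9%) and 38 lower members (41.3%). Among all genes higher or lower by any gap the shares were 25% and 31.7%. The median late minus early difference was 0.81 over the higher members and -0.77 over the lower ones, and 32 and 9 of them differed at least 2-fold between pair means. The lower members were brighter, with a median intensity of 587 against 376 for the higher members and 384 for all measured genes. In 12 of the 129 higher and 0 of the 92 lower members the control value was under that array's median of 92.2. Among all genes higher by any gap this held for 132 of 3583. Such genes passed the filter only through brighter treated arrays. Genomic spans in RefSeq's gene table had medians of 40.7 kb for lower members, 26.4 kb for higher members and 28.1 kb for all measured genes. A gap can only stay or widen when an array is left out: without 1 array in turn, 167 (without 24 h) to 334 (without 8 h) genes were higher and 164 (without control) to 264 (without 8 h) lower with a gap of at least 0.5.

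**Figure D1:**
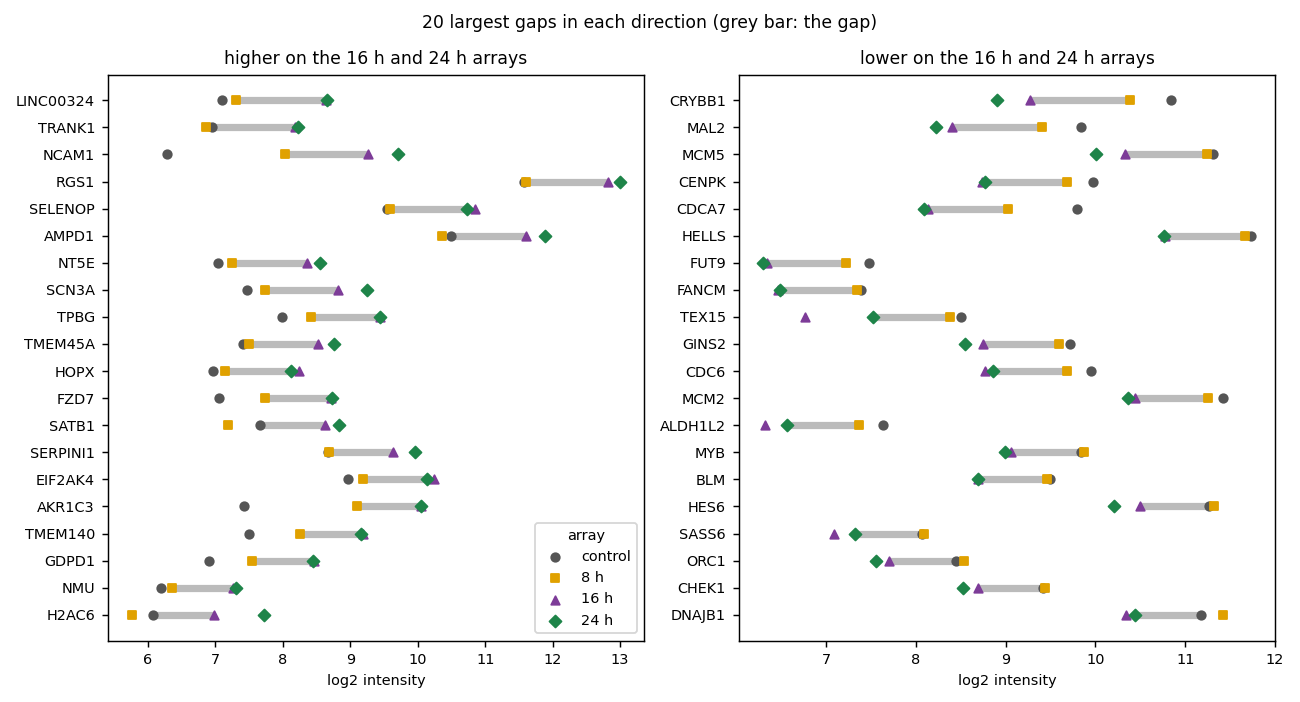
Log2 intensity on each of the 4 arrays (x axis) for the 20 genes with the widest gap in each direction (y axis), with a grey bar spanning the gap between the nearest early and late arrays. The late marks stand together on one side of both early marks in every gene, with LINC00324 (1.33) at the top of the higher genes and CRYBB1 (1.12) at the top of the lower ones.

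The threshold of 0.5 ran through a continuum. Just inside it among the higher genes were ZDHHC14 (gap 0.501), BMF (0.506) and ANXA4 (0.506), and just outside were HIVEP2 (0.498), FAM200A (0.496) and SLC44A1 (0.496). Among the lower genes GMNN (0.504), RUSC1-AS1 (0.508) and BARD1 (0.509) were just inside, and MCM4 (0.497), DEK (0.496) and CTNNAL1 (0.493) just outside. Under the filter on low values lay 7329 further annotated genes, of which 11 were higher and 3 lower with such a gap. A large mean difference did not always come with a gap: 334 genes were higher and 274 lower by at least 0.5 between pair means, of which 199 and 177 had a separated gap under 0.5 and 6 and 5 had pairs that overlapped.

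Many of the lower members were genes of DNA replication. Origin licensing, the loading of the MCM helicase before S phase, had 15 of 19 measured list members lower on both late arrays and 1 higher, with a median difference of -0.73, against 24.0% lower and a median of 0.016 over all genes. Of these, 11 had a gap of at least 0.5. In a bulk culture, less RNA per cell and fewer cells that make the RNA cannot be told apart.

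Of the helicase subunits, MCM5 read 2532 in the control, 2427 at 8 h, 1285 after 16 h and 1031 after 24 h. Both late values lay well under both early values, with a difference of -1.11 and a gap of 0.92, which is 1.89-fold. MCM2 read 2740.1, 2439, 1386 and 1319 (gap 0.82). MCM3, MCM6 and MCM7 had gaps of 0.67, 0.62 and 0.64, and MCM4 missed the threshold with 4757, 4703, 3333 and 2604. The whole ring of 6 subunits was thus lower on both late arrays, with 8 h values close to control.

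The loading factors stood the same way. CDC6, which opens the ring around DNA together with CDT1, read 987 in the control, 822 at 8 h, 437 after 16 h and 465 after 24 h, a difference of -0.998 with a gap of 0.82. ORC1, the largest subunit of the origin recognition complex, read 349, 369.8, 209 and 189 (gap 0.74). ORC1 was thus a little higher at 8 h than in the control and lowest at 24 h. CDT1 mRNA read 422, 394, 269 and 219.8, with a difference of -0.75, a gap of 0.55 and the arrays in order of time. CDT1 is the substrate whose protein the drug is known to stabilise, and only its mRNA was measured. GMNN, which encodes geminin, the inhibitor of CDT1, read 3184, 3373, 2246 and 2108 and was the last lower gene inside the threshold. Not every licensing gene was lower: ORC4 read 632, 627, 639 and 669 and was higher on both late arrays by a gap of 0.016, and the pairs overlapped in 3 list members.

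At the fork itself, 39 of 40 measured genes were lower on both late arrays and none was higher, with a median of -0.50 and 11 gaps of at least 0.5. GINS2, a subunit of the active helicase, read 838 in the control, 774 at 8 h, 430.4 after 16 h and 375 after 24 h, a 2.01-fold difference between pair means. CDC45, its partner in that helicase, read 1071, 1046, 662 and 535 (gap 0.66). PCNA, the sliding clamp that holds polymerases on DNA, was among the brightest members at 7547, 7588, 5116 and 4567 (gap 0.56), with the late pair apart from the early pair. The clamp loader genes RFC3 and RFC5 had gaps of 0.61 and 0.59, POLE2 of the leading-strand polymerase 0.66, the fork protection gene TIPIN 0.62 and WDHD1, which links helicase and primase, 0.59. UHRF1, which reads half-methylated DNA behind the fork, read 2681, 2421, 1613 and 1317 (gap 0.59). DTL, the substrate receptor through which cullin 4 ligases destroy CDT1 at PCNA, read 3446, 3159, 2150.2 and 1824 (gap 0.55).

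**Figure D2:**
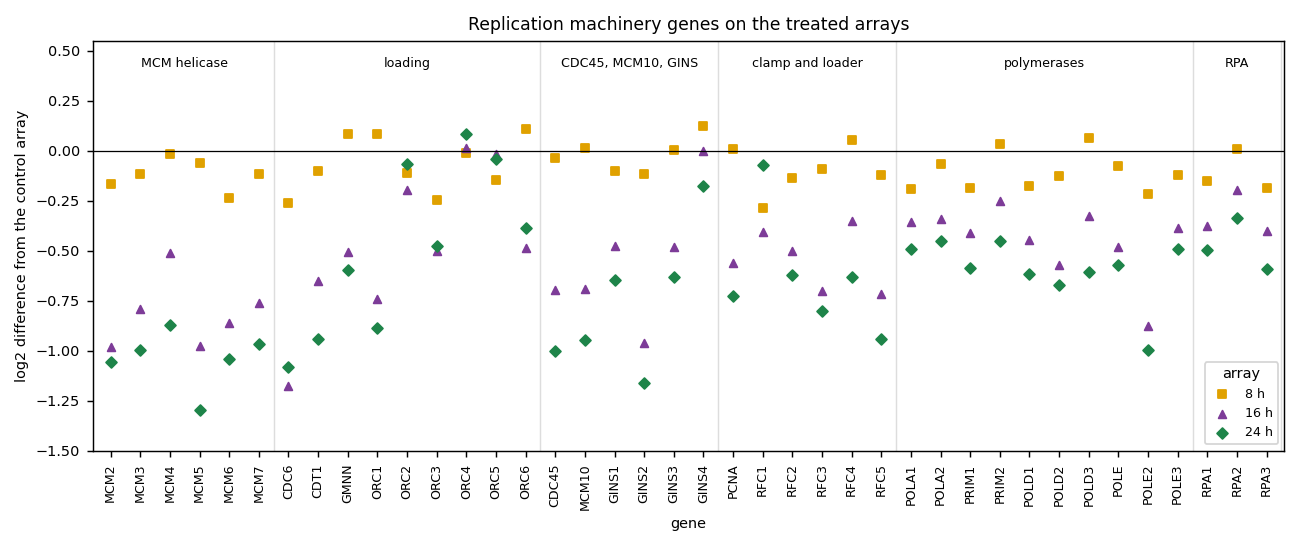
Log2 difference from the control array (y axis) on the 8 h, 16 h and 24 h arrays for replication genes (x axis) grouped by role. The 8 h marks lie near 0 and the 16 h and 24 h marks mostly well below it, while ORC4 stands near 0 on all treated arrays.

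The promoters of 3 of these genes and of 2 chromatin genes with wide gaps are shown because short E2F words were in a larger share of the lower members than of all measured genes, a difference that was not tested. The words searched were TTTCCCGC, TTTCGCGC, TTTGCCGC and TTTGGCGC, on both strands, in the 250 bases before the gene's start in RefSeq's table for GRCh38.p14. They were found in 18 of the 79 lower members with a promoter in the table (22.8%), in 2 of 103 higher members (1.94%), in 441 of 10036 measured genes (4.39%) and in 761 of all 27305 promoters of the table (2.79%). By list the share was 29.4% of 17 licensing genes and 26.5% of 34 fork genes. It was 7.14% of 28 DNA repair and checkpoint genes, most of which were also lower, and 3.12% of 32 mitosis genes. A match is a description of these letters and not a bound site. The 250 bases are printed 5′ to 3′ on the gene's strand, with matches in capitals, for the lower members with the widest gaps that held a match (CDCA7, HELLS and GINS2), for MCM6, which held 4 matches, and for CDT1.
CDCA7 (chr2:173354622-173354871, plus strand, GRCh38.p14): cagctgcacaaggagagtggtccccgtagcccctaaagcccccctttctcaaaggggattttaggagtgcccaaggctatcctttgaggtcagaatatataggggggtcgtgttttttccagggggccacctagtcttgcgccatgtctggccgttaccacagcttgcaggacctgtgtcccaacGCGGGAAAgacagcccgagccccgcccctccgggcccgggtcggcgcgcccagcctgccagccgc
HELLS (chr10:94545538-94545787, plus strand, GRCh38.p14): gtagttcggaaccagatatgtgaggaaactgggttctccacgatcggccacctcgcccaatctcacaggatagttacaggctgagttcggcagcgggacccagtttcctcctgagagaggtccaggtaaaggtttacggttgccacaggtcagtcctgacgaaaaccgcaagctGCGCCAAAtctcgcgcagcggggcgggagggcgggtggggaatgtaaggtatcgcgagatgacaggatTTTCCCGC
GINS2 (chr16:85688955-85689204, minus strand, GRCh38.p14): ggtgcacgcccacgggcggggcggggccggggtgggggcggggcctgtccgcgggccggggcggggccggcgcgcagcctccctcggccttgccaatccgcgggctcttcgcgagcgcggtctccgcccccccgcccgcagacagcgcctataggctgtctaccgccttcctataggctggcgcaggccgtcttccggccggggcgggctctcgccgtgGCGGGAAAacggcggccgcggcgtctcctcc
MCM6 (chr2:135876444-135876693, minus strand, GRCh38.p14): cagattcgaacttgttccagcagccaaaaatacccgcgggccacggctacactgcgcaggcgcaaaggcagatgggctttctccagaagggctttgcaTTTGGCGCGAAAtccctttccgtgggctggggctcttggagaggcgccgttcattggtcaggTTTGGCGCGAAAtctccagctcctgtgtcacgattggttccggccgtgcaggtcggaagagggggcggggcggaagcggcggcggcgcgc
CDT1 (chr16:88803539-88803788, plus strand, GRCh38.p14): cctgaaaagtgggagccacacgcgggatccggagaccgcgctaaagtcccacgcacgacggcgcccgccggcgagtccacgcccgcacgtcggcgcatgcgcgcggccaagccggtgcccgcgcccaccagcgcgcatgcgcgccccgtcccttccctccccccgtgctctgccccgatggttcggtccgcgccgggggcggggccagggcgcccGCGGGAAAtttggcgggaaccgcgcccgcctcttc
In MCM6 each of its 2 capital stretches joins 2 words that overlap and run on opposite strands. The CHR word TTTGAA, known from promoters of mitotic genes, was in 59.4% of the 32 mitosis genes, 5.06% of lower members, 12.6% of higher members and 8.55% of measured genes. The FOXO word GTAAACA was in 7 of 103 higher members (6.80%), among them HBP1 and BTG1, in 1 of 79 lower members (1.27%) and in 2.01% of measured genes.

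Repair and checkpoint genes stood beside the replication genes. Of 33 measured, 30 were lower on both late arrays and 2 higher, with a median of -0.52 and 10 gaps of at least 0.5. BLM, the helicase lost in Bloom syndrome, read 718 in the control, 705 at 8 h, 412 after 16 h and 413 after 24 h, so that the late arrays were nearly equal and the early arrays as well. CHEK1, the kinase that halts the cycle when forks stall, read 684, 694, 413 and 368 (gap 0.73). FANCM, which moves DNA at stalled forks, read 168, 162, 88.1 and 89.4 (gap 0.86), on a dim probe set, and its difference went from -0.90 to -0.45 with the median over probe sets. BRCA1 and its partner helicase BRIP1 had gaps of 0.62 and 0.69, and its other partner BARD1 0.51. For CDC25A, the phosphatase that starts S phase, the probe set of the gene had a difference of -0.72, while its second probe set gave -0.12 with overlapping pairs. CLSPN, the adaptor that activates CHEK1, likewise had -0.65 on one probe set and 0.16 on the other.

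Genes of DNA methylation and chromatin remodelling were lower in 17 of 20 measured, with a median of -0.38 and none higher. CDCA7 and HELLS encode the partners of a remodelling complex that keeps DNA methylation in place. CDCA7 read 887 in the control, 523 at 8 h, 280.4 after 16 h and 273 after 24 h. Its 8 h array already lay below control (-0.76), and the gap from 8 h to the late pair was a further 0.90. HELLS read 3397, 3254, 1752 and 1734, with both early arrays close together and both late arrays close together. The histone carriers and modifiers NASP and HAT1 had gaps of 0.58 and 0.51. Histone genes did not stand together. Of 30 in the list 7 were measured, of which 4 were higher and 2 lower. H2AC6 read 67.6, 54.3, 126 and 211 and H2BC12 269.8, 237, 494 and 876, the 24 h array far above the 16 h array in both. Both early values of H2AC6 lay under the filter of 93.9, so it counted as measured only through its late arrays. The linker histone gene H1-2 stood the other way at 1384, 1157, 734 and 780.3. Histone genes have near-identical copies, so each of these values may hold signal of other copies, and the list median of 0.18 was -0.22 without probe sets whose names mark shared or similar sequence, 0.35 with the median over probe sets and 0.0096 with no filter.

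The rest of the cell cycle was lower by less. Of 17 measured deoxynucleotide genes 12 were lower and 1 higher (median -0.31), with no gap of 0.5. TYMS, which makes thymidylate, read 8759, 8473, 6165 and 5586 (gap 0.46) and TK1, which salvages thymidine, 1412, 1381, 1009 and 839.8 (gap 0.45). E2F factors and pocket proteins were lower in 9 of 18 and higher in 2 (median -0.22, or -0.067 with the median over probe sets). E2F2, an activating E2F, read 1366, 1046, 704 and 679 (gap 0.57), and its second probe set gave -0.52 against -0.79. The 2 higher genes were RBL2, a pocket protein of resting cells, with a difference of 0.28, and E2F5, a repressive E2F, with 0.40. Cyclins, CDKs and CDK inhibitors were lower in 13 of 22 and higher in 3 (median -0.22, or -0.073 without probe sets named as shared or similar). CCNE2, a cyclin of S phase entry, and CDK2, its kinase, had gaps of 0.48 and 0.44, though the pairs overlapped on the second probe set of CDK2 (-0.12). CDKN1A, which encodes the inhibitor p21, a substrate of the same ligases, read 1324, 1092, 834 and 641 and was lower on both late arrays (gap 0.39).

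Mitotic genes were lower in 30 of 39 measured and higher in none, but none had a gap of 0.5, and the median was -0.25. MKI67, the proliferation marker, read 2267, 2309.7, 1484 and 1759 (gap 0.37) and ANLN, a protein of the division furrow, 919.7, 964, 618 and 656 (gap 0.49). In 9 mitotic genes the pairs overlapped, among them the mitotic kinases PLK1 (484, 488, 452 and 496) and AURKA (1144, 1338, 1298 and 1198), and in TOP2A, which untangles chromosomes, they were separated by a gap of 0.030 only (3729, 3759, 3143 and 3651). Kinesins and centromere proteins were lower in 23 of 29 (median -0.44), with 4 gaps of at least 0.5. CENPK, a subunit of the inner kinetochore, read 1004 in the control, 822 at 8 h, 426 after 16 h and 438 after 24 h, a gap of 0.91 that was the fourth widest among the lower genes. KIF15, a spindle motor, had a gap of 0.62. Outside the lists, SASS6, the cartwheel protein of centrioles, read 268, 273, 137 and 159 (gap 0.75). CPAP, which elongates the new centriole (gap 0.52), and PLK4, the kinase that starts it (gap 0.53), were chosen after their values were seen, and no list of centriole genes was counted.

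**Figure D3:**
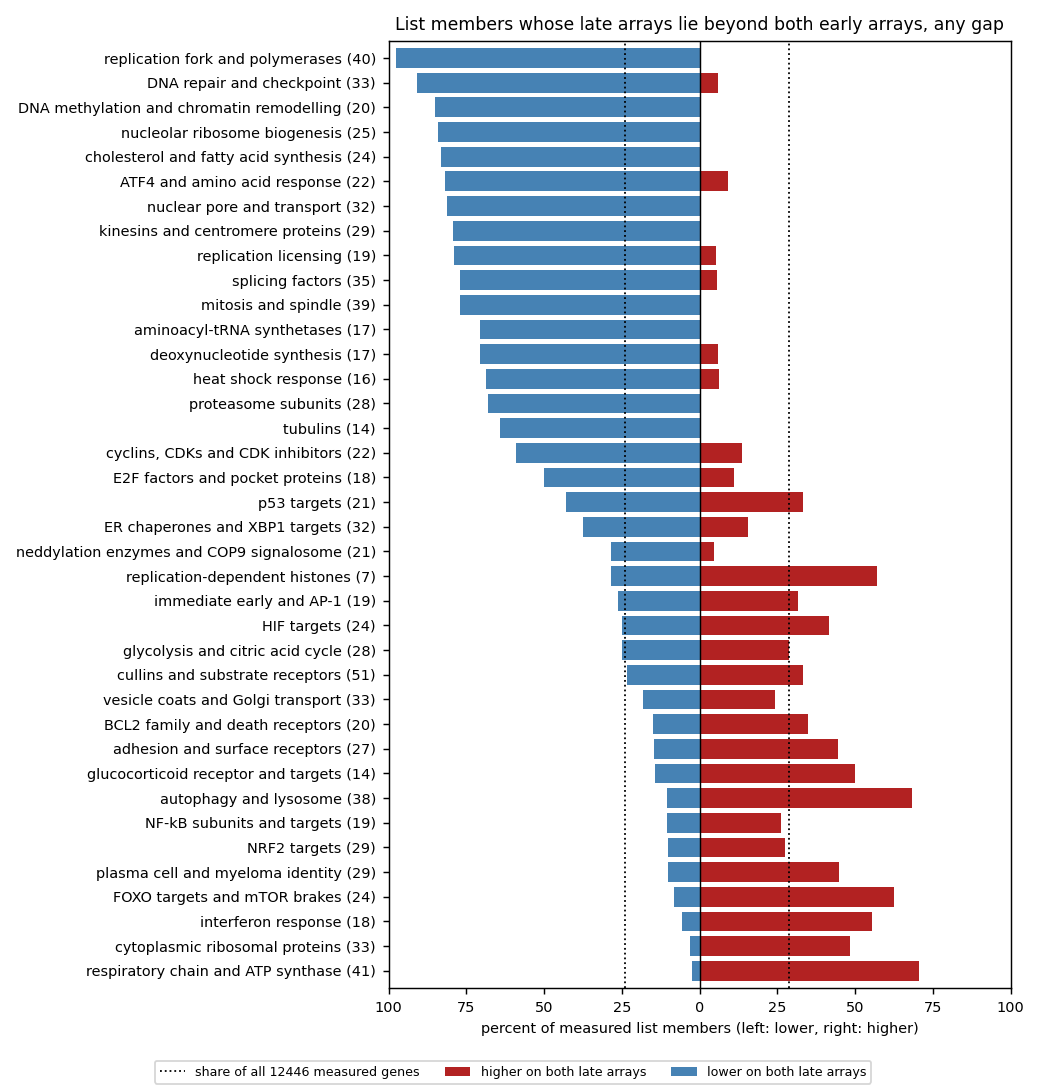
Share of the measured members of each gene list (number measured in parentheses) that were lower (blue, left) or higher (red, right) on both late arrays with any gap, in percent. Dotted lines mark the shares over all 12446 measured genes, 24.0% lower and 28.8% higher. Replication fork genes (97.5% lower) stand at the top and the respiratory chain (70.7% higher) at the bottom.

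Several lower members with wide gaps are not known as replication genes. CRYBB1, a lens crystallin, had the widest gap of all lower genes (1.12) and read 1840.4 in the control, 1340.4 at 8 h, 618 after 16 h and 480.1 after 24 h, lower on each array than on the one before in order of time. MAL2, a membrane protein of vesicle traffic, read 913, 676, 337 and 298 (gap 1.002). FUT9, a fucosyltransferase, read 178, 149, 81.1 and 78.8 (gap 0.88), so that its late values were below the median intensity of any array. TEX15, known from germ cells, read 364, 333, 108 and 184, with 24 h between 16 h and the early pair. MYB, a transcription factor of blood cell proliferation, read 914, 939, 535 and 510.1 (gap 0.77), and its relative MYBL1 had a gap of 0.53 on one probe set and overlapping pairs on the second (0.015). No other probe set of TEX15 or MYB passed the filter, and with the median over all of them the differences went from -1.30 to -0.64 and from -0.83 to -0.41. HES6, a helix-loop-helix regulator, read 2452, 2546, 1443 and 1179 (gap 0.76). DNAJB1, an Hsp40 co-chaperone, read 2307, 2748, 1298 and 1391, above control at 8 h and below it on both late arrays (gap 0.73).

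Other biosynthetic programmes were lower with smaller gaps. Of 22 measured genes of the ATF4 and amino acid response 18 were lower (median -0.24). ALDH1L2, a mitochondrial folate enzyme, read 198, 165, 79.7 and 94.97 (gap 0.80), and PSAT1, of serine synthesis, 1022, 1009, 690.2 and 598 (gap 0.55). ATF4 itself had a difference of -0.27 with a gap of 0.25. Aminoacyl-tRNA synthetases, which charge tRNAs, were lower in 12 of 17 and higher in none (median -0.21), with AARS1 at a gap of 0.43. Genes of cholesterol and fatty acid synthesis were lower in 20 of 24 and higher in none (median -0.32), and ACAT2 and LSS, enzymes at the start and middle of the sterol path, had gaps of 0.57 and 0.52. Chaperones of the heat shock response were lower in 11 of 16 and higher in 1 (median -0.32). The 8 h array stood above control here: the list's median 8 h minus control difference was 0.25, and without the 8 h array the late minus control median was -0.15.

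The lists of RNA handling were lower too. Nuclear pore and transport genes were lower in 26 of 32 (median -0.26), nucleolar ribosome biogenesis genes in 21 of 25 (median -0.20) and splicing factors in 27 of 35 (median -0.19), with none, none and 2 higher and no gap of 0.5. The widest gaps were 0.46 for NUP35 and 0.46 for NUP58, both of the pore, 0.47 for the splicing factor U2AF2 and 0.29 for nucleolin (NCL). The second probe set of NCL had overlapping pairs (0.054), and that of U2AF2 gave -0.23 against -0.53. Proteasome subunits were lower in 19 of 28 with none higher, but by a median of only -0.12. Tubulins were lower in 9 of 14 (median -0.31), and TUBB2A and TUBB2B, close copies of each other, had gaps of 0.47 and 0.44.

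Of the 129 higher members 18 were in any of the 43 lists, and of the 92 lower members 49 were, while 7.66% of all measured genes were in one. The lists were drawn up with earlier results of these data known, so these counts describe the lists as much as the members. LINC00324, a noncoding RNA, had the widest gap of any gene (1.33) and read 137 in the control, 158 at 8 h, 398 after 16 h and 401 after 24 h. RGS1, which shuts off chemokine receptor signalling, was the brightest gene with a gap over 1: it read 3043, 3116, 7209 and 8172, a 2.49-fold difference between pair means, and its second probe set gave 1.66. TRANK1 read 123, 117, 289 and 299 (gap 1.23). Both early arrays of RGS1 and of TRANK1 were close together, and the gap was 2.31-fold in the one and 2.34-fold in the other.

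2 enzymes that act on AMP were among the widest gaps. AMPD1, which removes the amino group of AMP, read 1435, 1319, 3112 and 3780.3 (gap 1.12), and NT5E (CD73), the surface enzyme that turns AMP into adenosine, read 131, 152, 327 and 376 (gap 1.10). PDE4B, which breaks down cyclic AMP, had a gap of 0.76, though its second probe set differed by only 0.20. TDO2 and KMO, enzymes of tryptophan breakdown, had gaps of 0.59 and 0.65, and KMO was dim at 105, 99.2, 165 and 222.

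Other wide gaps belonged to surface and signalling genes. SCN3A, a voltage-gated sodium channel, read 176, 212, 452 and 609.8 (gap 1.09), and TPBG, the oncofetal antigen 5T4, 253, 340.3, 696 and 691 (gap 1.02). No other probe set of either gene passed the filter, and with the median over all of them the differences went from 1.44 to 0.75 for SCN3A and from 1.24 to 0.62 for TPBG. FZD7, a Wnt receptor, read 132, 214, 419 and 422, part of the way up at 8 h, with a gap of 0.97 after it. PIK3CG, the gamma catalytic subunit of PI3 kinase, read 1199, 1403, 2470.0 and 2569 (gap 0.82) and CLEC7A (Dectin-1), a receptor for fungal glucans, 1122, 887, 1995 and 2341 (gap 0.83). The chemokine receptors CXCR3 and CCR2 both had gaps near 0.8 but different paths. CXCR3 read 659, 1005, 1755 and 2099, in order of time, whereas CCR2 read 258, 163, 451 and 583, lower at 8 h than in the control (difference -0.66) and higher on both late arrays. SATB1, a chromatin organiser of lymphocytes, was also lower at 8 h than in the control (203, 146, 396 and 458), while in STAT4, which transmits interleukin-12 signals, the early arrays were nearly equal (141, 139, 273 and 261). HOPX, a homeodomain protein, read 125, 140.5, 302 and 278 (gap 0.98).

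Not all wide gaps held on a gene's second probe set. SELENOP, the selenium carrier, had a gap of 1.15 on one probe set (743, 768, 1845 and 1701) and a difference of 0.060 with overlapping pairs on the second. EIF2AK4, the amino acid sensor GCN2, had a gap of 0.95 and 0.012 on the second. Among the 56 higher members with a second measured probe set, 43 (76.8%) were separated the same way on it, 22 of them with a gap of at least 0.5, and 2 were separated the other way. Among 52 lower members the counts were 46 (88.5%), 24 and 0. Over all 5719 genes with a second measured probe set, 26.3% of second probe sets were higher and 25.6% lower. Both probe sets come from the same RNA on the same arrays, so this is a check of the probes and not of the cultures. When a gene was taken as the median over its probe sets, 83 genes were higher and 69 lower with such a gap.

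**Figure D4:**
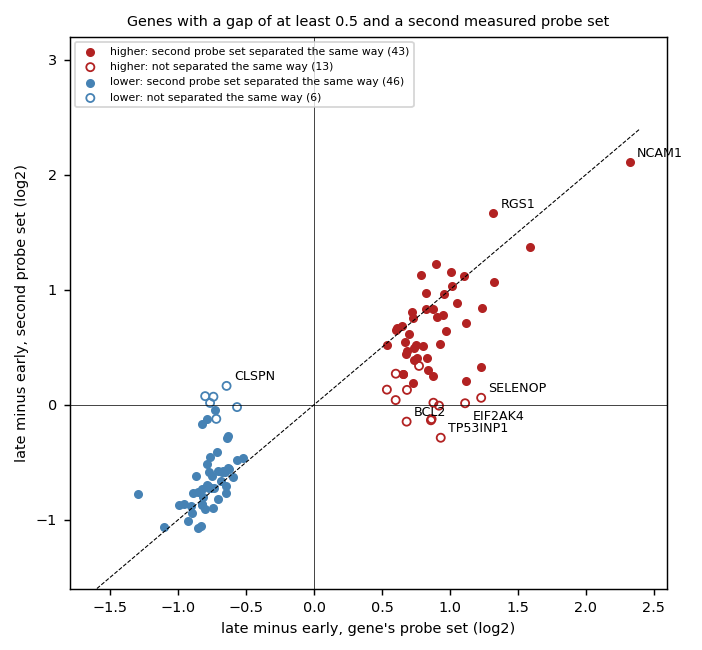
Late minus early difference (log2) of a gene's probe set (x axis) against that of its second probe set (y axis), for members with a gap of at least 0.5. Filled points were separated the same way on the second probe set (43 higher and 46 lower), open points were not, and SELENOP, EIF2AK4, BCL2, TP53INP1 and CLSPN are among the open points.

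A few members stood far from control at 8 h and further after it. NCAM1 (CD56), the adhesion molecule carried by many myeloma cells, read 77.4 in the control, 262 at 8 h, 612 after 16 h and 832 after 24 h, a 5.01-fold difference between pair means that was the largest of any measured gene, and its second probe set gave 2.11. With the median over all its probe sets the difference was 0.65, and its control value lay under that array's median intensity of 92.2. Its 8 h array was 1.76 above control, and the gap from 8 h to 16 h was a further 1.22. AKR1C3, an aldo-keto reductase of steroids and a target of NRF2, read 172, 551, 1056 and 1061 (gap 0.94), AKR1C2 102, 273, 477 and 530.4 (gap 0.80) and AKR1C1 166, 283, 458 and 443 (gap 0.65). These reductases are close paralogs whose probes may share signal, and the median over the probe sets of AKR1C1 had a difference of only 0.064.

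Most of the NRF2 target list had no such gap. Of 29 measured members 8 were higher, 3 lower and 18 had overlapping pairs, or 27.6% higher and 10.3% lower, against 28.8% and 24.0% of all genes. The list's median 8 h minus control difference was 0.67 and its late minus early median 0.14. That median was 0.43 without the 8 h array and -0.069 without the control array. NQO1, a quinone reductase, read 348, 1069, 1275 and 1136, separated by a gap of only 0.087. TXNRD1, thioredoxin reductase, read 3792, 10501, 8036 and 7809 and SRXN1, sulfiredoxin, 1276, 5834, 4388 and 3737, with 8 h the highest in both. HMOX1, heme oxygenase, read 92.2, 230.1, 97.3 and 77.6, back near control on the late arrays.

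**Figure D5:**
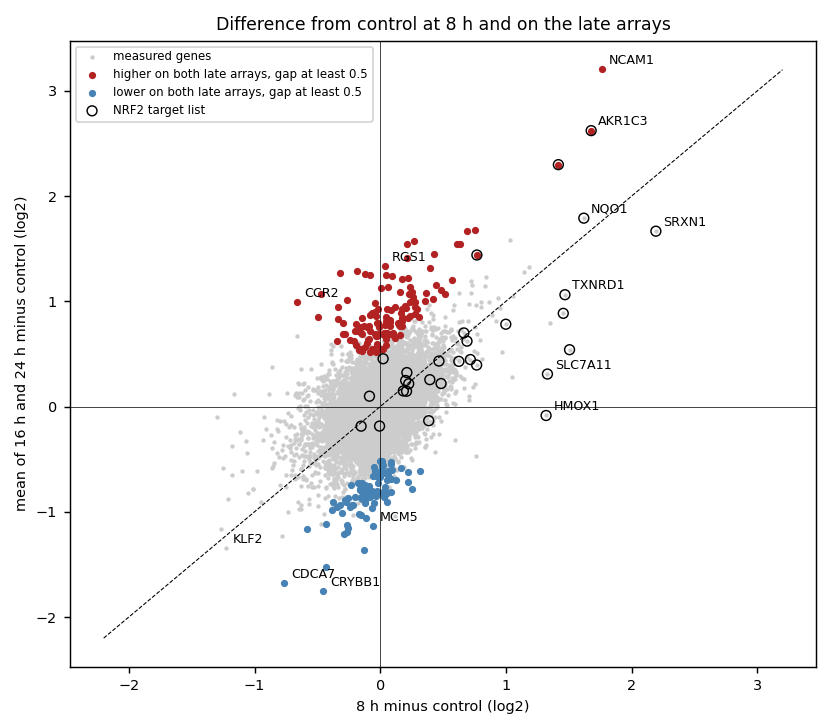
Difference from control at 8 h (x axis, log2) against the mean of 16 h and 24 h minus control (y axis, log2) for each measured gene. Both axes share the control array, so the lean of the cloud is not read as a result. Red and blue points are members with a gap of at least 0.5, most of them near 0 on the x axis, while NRF2 targets (circles) such as SRXN1 and HMOX1 lie to the right.

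The list of FOXO targets and mTOR brakes had 15 of 24 measured members higher and 2 lower, with a median of 0.32. In the other 7 the pairs overlapped. KLF2 was 1 of the lower genes and had the lowest difference of the list (-0.73). CCNG2, an unconventional cyclin of resting cells, read 505 in the control, 597 at 8 h, 1120.2 after 16 h and 1098 after 24 h (gap 0.88), and its second probe set gave 1.03. TSC22D3 (GILZ), a glucocorticoid-induced gene, read 553, 514, 837 and 842, and PNRC1, a nuclear receptor coactivator, 932, 1052, 1657 and 1684 (gaps 0.60 and 0.66). The second probe set of TSC22D3 gave only 0.27. TXNIP, which limits glucose uptake, had a gap of 0.46. Outside the list, HBP1, a repressor that slows entry into S phase, read 694, 825, 1381 and 1585 (gap 0.74), and BTG1, an antiproliferative gene of lymphocytes, 4342, 3760.3, 6331 and 7024 (gap 0.54). YPEL5 had a gap of 0.60.

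Genes of cell death pointed in several directions. Of 20 measured BCL2 family and death receptor genes 7 were higher (35%) and 3 lower (15%), against 28.8% and 24.0% of all measured genes. Their median was 0.084, or -0.027 with the median over probe sets. BCL2, which blocks apoptosis, read 964, 908, 1483 and 1515 (gap 0.62), but its second probe set was lower on both late arrays (-0.15), so the direction depends on the probe set. BMF, a BH3-only activator of death, read 709, 878, 1317 and 1247 (gap 0.51), and BCL2L11 (BIM) had a gap of 0.37. PMAIP1 (NOXA), a BH3-only partner of MCL1, stood the other way at 434, 322, 217 and 185, with the arrays in order of time (gap 0.57), and its second probe set gave -0.95. TP53INP1, a p53 target, read 2187, 2969, 4850.4 and 4875 (gap 0.71), with its second probe set lower (-0.29). The p53 target list as a whole had 7 of 21 higher (33.3%) and 9 lower (42.9%), against 28.8% and 24.0% of all measured genes. Its median was 0.039. With the median over probe sets 5 of 19 were higher and 8 lower, with a median of -0.091.

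Autophagy and lysosome genes were higher in 26 of 38 measured and lower in 4, with a median of 0.25, and 1 of them had a gap of at least 0.5. NBR1, an autophagy receptor, read 827, 809, 1538 and 1461 (gap 0.82), though its second probe set gave only 0.25. WIPI1, of early autophagosomes, and the lysosomal proteases CTSB and CTSA had gaps of 0.49, 0.49 and 0.41. BNIP3L (NIX), which marks mitochondria for autophagy and is also a HIF target, read 454, 369.8, 735 and 848 (gap 0.69). Respiratory chain and ATP synthase genes were higher in 29 of 41 and lower in 1, by a median of 0.10, the largest gaps being 0.35 for NDUFB5 and 0.31 for COX4I1. HIF targets were mixed, with 10 of 24 higher (41.7%) and 6 lower (25%), against 28.8% and 24.0% of all measured genes. Their median was 0.035, or -0.015 without the control array and 0.19 without the 8 h array.

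Interferon response genes were higher in 10 of 18 measured and lower in 1 (median 0.22, or 0.046 with no filter), and 12 of the list's 32 genes lay under the filter. OAS1, which makes the activator of RNase L, read 286, 279, 479 and 577 (gap 0.74), and its second probe set gave 1.22. IRF9, of the interferon-activated transcription complex, read 249, 226, 356 and 344 (gap 0.47). AIM2, a sensor of DNA in the cytosol, read 574, 548, 1078 and 1053 (gap 0.88). CXCL10, a ligand of CXCR3, read 265, 188, 580.3 and 392, with 16 h well above 24 h.

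Genes of the drug's own pathway differed little at the mRNA level. Of 21 measured neddylation and COP9 signalosome genes 1 was higher (4.76%) and 6 lower (28.6%), against 28.8% and 24.0% of all measured genes. Their median was -0.029, and none had a gap of 0.5. NEDD8 read 2082, 2052, 2370.1 and 2352 (gap 0.18), and NAE1, of the activating enzyme, 2782, 3287, 2735 and 2752, lower by a gap of 0.016 only. UBA3, its catalytic partner, read 2233, 1953, 2230.4 and 2330.4, with overlapping pairs. RBX1, the RING subunit that recruits the ubiquitin-carrying enzyme, was lower with 3519.9, 3076, 2639 and 2629.9 (gap 0.22), and CAND1, which exchanges substrate receptors, had a gap of 0.11, with a difference of -0.19 that was -0.069 with the median over probe sets. The cullins CUL1, CUL2 and CUL5 had overlapping pairs, and CUL3, CUL4A and CUL4B were separated by gaps of 0.012, 0.0082 and 0.018. Among 51 measured cullins and substrate receptors 17 were higher (33.3%) and 12 lower (23.5%), near the 28.8% and 24.0% of all measured genes (median 0.032). The gaps of at least 0.5 were those of DTL and FBXO5, an inhibitor of the anaphase-promoting complex. KEAP1 read 1346, 1873, 1657 and 1534 and NFE2L2, which encodes NRF2, 2131, 2056, 2060.3 and 2129, both with overlapping pairs.

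Plasma cell and myeloma identity genes were higher in 13 of 29 measured and lower in 3, with no gap of 0.5 (median 0.086). In the other 13 the pairs overlapped. The list's median 8 h minus control difference was -0.14. Without the 8 h array 14 were higher and 9 lower, with a median of 0.014. CD28, a costimulatory receptor found on myeloma cells, read 1714, 1559, 2307 and 2449 (gap 0.43), and IRF4, the factor that plasma cells depend on, 4678, 3829.9, 5160.1 and 5144. CRBN, the cullin 4 receptor bound by lenalidomide, read 621, 574, 734 and 742 (gap 0.24). CCND2 stood the other way at 11264, 7149, 7098 and 7040, a difference of -0.34 that was the lowest of the list.

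The likeness of single genes' paths was taken as the Euclidean distance between their 4 log2 values after each was centred on its mean, over 4 arrays and 12446 genes, and it is a description only. Nearest to CDT1 were DTL (0.044), TIPIN (0.051), RFC5 (0.054), UHRF1 (0.069) and MIS18A (0.081). Nearest to MCM5 were GINS2 (0.14) and HES6 (0.19), and nearest to RGS1 were TRANK1 (0.13), NT5E (0.13) and AMPD1 (0.13). CCNG2 was nearest to NMU (0.079) and PIK3CG (0.084). NCAM1 had no close neighbour, its nearest being AKR1C3 at 0.63 and AKR1C2 at 0.80.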

How the data were processed

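Per the labels' protocols, Trizol was used to take total RNA from MM.1S cells, and Affymetrix's standard method gave the biotinylated cRNA for the arrays. The deposited values are intensity on a linear scale, made by the authors; how they were summarised, background-corrected and normalized is not given in the sources used here. Groups came from the labels, with 1 array each, and no array was left out. Before log2 was taken, any value under 48.4, the 25th percentile over the arrays, was set to it. Probe sets were named through the platform annotation: of 54675, 41097 had 1 gene, 1801 several and 11777 were not listed. A gene was its brightest probe set with 1 gene and was measured when its mean was above the median probe set (geometric mean 93.9), which left 12446 of 19775 genes, with 0 at the floor on any array. With 1 array a group no test was run, and the procedure was tested on simulated data. The members and the 43 gene lists were chosen with earlier results of these data known, and some genes are in several lists.

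Named genes were the 20 widest gaps in each direction, up to 5 separated members of each list with the widest gaps, the main neddylation and cullin genes with CDT1, KEAP1 and NFE2L2, and 3 genes on each side of the gap of 0.5. Other named genes were chosen after their values were seen. Alternatives changed the probe set rule, filter, floor and scaling, or left out 1 array. Promoters came from RefSeq's table for GRCh38.p14. Python 3.11.15, numpy 2.4.6, pandas 2.3.3 and matplotlib 3.10.9 were used.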

Additional observations from a re-analysis of the deposited data

Results flagged for a closer look

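CCR2, a chemokine receptor, was lower at 8 h than in the control by a log2 difference of -0.66 and higher than the control by 0.81 at 16 h and 1.17 at 24 h. It was singled out because the 8 h array and both later arrays lay on opposite sides of the control, with 8 h at least 0.5 away. This held for 1 of the 129 higher and 0 of the 92 lower members. Among all genes separated by any gap it held for 23 of 3583 higher and 2 of 2989 lower genes. A smaller distance of this kind was common: 8 h lay on the late side of control in 75 of the 129 higher and 63 of the 92 lower members. Among all genes separated by any gap it lay there in 1896 of 3583 higher and 1620 of 2989 lower genes. Each side is 1 array or a pair of arrays, its single measured probe set gives no second reading, and the difference was not tested.

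Among 5048 probe sets above the filter that name no single gene, and so belong to no comparison of the report, 26 were higher and 27 lower on both late arrays with a gap of at least 0.5. A probe set annotated with several genes was the 1 with a gap of at least 1. It read 395 and 350 on the early arrays against 157 and 175 on the late ones, a late minus early difference of -1.17.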

How the results depend on the processing

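No paired analysis was possible because each group has 1 array and the labels carry no shared replicate numbers. Of 477 values for counts and list medians under the alternatives, 455 stayed within 1.5 times the count or within the spread between probe sets (0.14). The sign of a list median was not part of this rule, and medians near 0 could change sign within the spread. That of p53 targets went from 0.039 to -0.091 with the median over probe sets. When a gene was the median of its probe sets, 83 were higher with a gap of at least 0.5, 69 of them among the 129, and 59 of the 92 lower genes were kept. The medians became -0.067 for E2F factors and 0.35 for histones, and BCL2 (-0.068) and TP53INP1 (-0.29) changed sign. With the filter at the 75th percentile 2279 genes were higher by any gap. With no filter the medians were 0.0096 for histones and 0.046 for interferon genes. Without probe sets named _x_at or _s_at they were -0.073 for cyclins and CDKs and 0.037 for glucocorticoid targets. Quantile normalization and centring the arrays kept 125 and 116 of the higher members and 88 and 91 of the lower ones. Leaving out 1 array in turn can only keep or widen a gap. The genes higher with a gap of at least 0.5 then numbered 167 without 24 h, 247 without 16 h, 312 without control and 334 without 8 h, and the lower ones 164 (without control) to 264 (without 8 h). By any gap 4862 to 5381 were higher and 4129 to 4613 lower. The list medians then ranged from -0.069 (without control) to 0.43 (without 8 h) for NRF2 targets, from -0.015 to 0.19 for HIF targets and from -0.39 to -0.15 for heat shock genes. Causes were not tested. Of 242 named genes 85 had at least 1 value that moved by more than the spread between probe sets or changed sign. The number of arrays limits what can be said, and signal over background limits the dim genes.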

Other observations

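Further lists held genes on both sides. Among immediate early and AP-1 genes, 6 of 19 measured were higher (31.6%) and 5 lower (26.3%) on both late arrays (median 0.036). These shares were near the 28.8% and 24.0% of all measured genes. The phosphatases DUSP4, DUSP5 and DUSP6, which switch off MAP kinases, were all higher, with gaps of 0.44, 0.38 and 0.39, and DUSP4 read 2175, 1753, 2947 and 2961 on the control, 8 h, 16 h and 24 h arrays. MAFF, a small MAF factor, had a gap of 0.73, though its second probe set had a gap of only 0.18 (difference 0.41 against 0.75). KLF2, a factor of lymphocyte quiescence, was lower from 8 h on at 706, 301, 286 and 269, so its gap was only 0.078. Glucocorticoid receptor targets were higher in 7 of 14 and lower in 2 (median 0.19, or 0.037 without probe sets named _x_at or _s_at), and FKBP5, a standard target, was one of the lower genes (gap 0.40). NF-kB subunits and targets were higher in 5 of 19 (26.3%) and lower in 2 (10.5%), against 28.8% and 24.0% of all measured genes (median 0.087). In the other 12 the pairs overlapped. Without the 8 h array 9 were higher and 9 lower, with a median of 0.022. CCL4, a chemokine of this list, read 452, 286, 605 and 858.

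Genes of the secretory pathway, which plasma cells use heavily, had small differences. ER chaperones and XBP1 targets were lower in 12 of 32 and higher in 5 (median -0.10). Vesicle coat and Golgi genes were lower in 6 of 33 (18.2%) and higher in 8 (24.2%), near the 24.0% and 28.8% of all measured genes. Their median was 0.027, or -0.11 without the 8 h array and -0.052 without the 24 h array. HSP90B1, an ER chaperone, read 6089, 5115, 4178 and 4421, and ERN1, the sensor that splices XBP1, read 2765, 2211, 3476 and 3551. Adhesion and surface receptor genes were higher in 12 of 27 and lower in 4 (median 0.080), among them SELPLG, the selectin ligand that carries lymphoid cells to vessel walls, with a gap of 0.42.

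Of 28 glycolysis and citric acid cycle genes 8 were higher and 7 lower, near the 28.8% and 24.0% of all measured genes, with a median of 0.0010 that became -0.017 when arrays were centred, -0.027 without the control array and -0.045 without the 16 h array. LDHA, lactate dehydrogenase, was lower (gap 0.27) and PFKM, a phosphofructokinase, higher (gap 0.30). Cytoplasmic ribosomal protein genes were higher in 16 of 33 and lower in 1, but by a median of 0.034, and 11 were higher once arrays were centred.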
